A study of Mus musculus with 35 samples.

Results

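The largest clustered domains of histone H3 lysine 27 acetylation (H3K27ac) in mouse embryonic fibroblasts (MEF) were followed through reprogramming to pluripotency. Peaks of the 2 MEF libraries on chromosomes 1 to 19 and X were merged, merged peaks found in both were kept, and kept peaks less than 12.5 kb apart were joined into domains. The 500 domains with the largest sum of kept base pairs, of 26385 domains in all, are described. They were chosen by the MEF values, so their MEF acetylation is a description and no test was made on it. They hold 6586 of 62472 kept peaks and 15.9% of the 86.4 Mb of kept base pairs.

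H3K27ac was profiled by chromatin immunoprecipitation and sequencing in MEF, on days 3, 6 and 9 of reprogramming and in embryonic stem cells (ESC), and the transcription factor KLF4 on the same days and in ESC. MEF and all reprogramming cells came from C57BL/6 x 129 mice that carry the doxycycline-driven OKSM cassette, which encodes the 4 reprogramming factors Oct4, Klf4, Sox2 and Myc, in the Col1a1 locus, and its activator M2rtTA in the Rosa26 locus. The 2 MEF libraries were from unsorted cells in MEF medium with no doxycycline. Day 3 cells (3 H3K27ac and 2 KLF4 libraries) were unsorted and grown in ESC medium that held doxycycline at 1 µg/ml and ascorbic acid at 50 µg/ml. Day 6 cells (3 H3K27ac, 2 KLF4) and day 9 cells (2 and 2) had the same medium and were sorted for SSEA1, a surface antigen of cells on the way to pluripotency. ESC were the V6.5 line on irradiated feeder cells, unsorted, in serum and LIF (2 H3K27ac and 2 KLF4 libraries) or, for 2 further KLF4 libraries, with the 2i pair of a MEK inhibitor at 1 µM and a GSK3 inhibitor at 3 µM added. V6.5 is 1 line, and ESC do not carry the cassette. The labels do not say that libraries of a group came from separate cultures, so p-values measure only the spread between these libraries, which may be technical.

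H3K27ac marks active promoters and enhancers. Clusters of strongly acetylated enhancers, often called super-enhancers, lie near genes that define a cell's identity, and joining peaks over a gap of several kilobases is the usual way to find them. In reprogramming, the fibroblast program is shut down before the pluripotency program is established. KLF4 is a zinc finger factor that binds GC-rich and CACCC-like sequence, and it is both one of the induced factors and a regulator of pluripotent cells.

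The files hold 1 peak list per library and no reads. H3K27ac lists ran from 17493 peaks at day 6 to 88347 in MEF, and KLF4 lists from 21129 to 34640. Depth is unknown, so a stretch with no peak is not a stretch with no signal. The labels give batches, named here without their shared prefix EC-, and these are unevenly spread. All MEF and ESC H3K27ac libraries came from batch DG-3458 and both day 9 libraries from EA-3702, while day 3 and day 6 have both. The day 6 EA-3702 list had a median peak width of 672 bp against 382 bp and 410 bp in the DG-3458 lists of that day.

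Promoters at 2 extremes are printed, 3 of each, because they show start sites with called peaks of H3K27ac and KLF4 at every profiled stage up to serum ESC and start sites with no called peak of either after MEF. KLF4 was not profiled in MEF here. Of 605 promoters of 488 protein-coding genes whose start lies in a domain (RefSeq, GRCm38.p6, 250 bases before to 50 after the start), 58 were overlapped by an H3K27ac peak in all 12 libraries and by a KLF4 peak in all 8 libraries of day 3, day 6, day 9 and serum ESC. Another 29 had H3K27ac in both MEF libraries, in none of the 10 later ones, and KLF4 in none of 10. From each class the 3 largest domains give 1 promoter each, the one with the lowest coordinate, a rule made after values were seen. Capitals mark the motif GGGNGNGGC on either strand, a pattern that takes in KLF-type sites and also the GC box of the Sp factors. The first 3 are of Cep63, a centrosome protein (chr9:102626075-102626374, minus strand), F3, which encodes tissue factor (chr3:121723287-121723586, plus strand), and Atp6v0e, a subunit of the vacuolar proton pump (chr17:26676146-26676445, plus strand).
Cep63: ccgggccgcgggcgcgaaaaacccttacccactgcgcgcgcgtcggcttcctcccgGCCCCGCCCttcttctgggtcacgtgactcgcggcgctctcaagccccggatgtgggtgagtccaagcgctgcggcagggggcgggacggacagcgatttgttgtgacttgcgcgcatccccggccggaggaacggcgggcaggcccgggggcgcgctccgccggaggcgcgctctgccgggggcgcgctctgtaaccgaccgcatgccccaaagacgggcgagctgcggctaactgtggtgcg
F3: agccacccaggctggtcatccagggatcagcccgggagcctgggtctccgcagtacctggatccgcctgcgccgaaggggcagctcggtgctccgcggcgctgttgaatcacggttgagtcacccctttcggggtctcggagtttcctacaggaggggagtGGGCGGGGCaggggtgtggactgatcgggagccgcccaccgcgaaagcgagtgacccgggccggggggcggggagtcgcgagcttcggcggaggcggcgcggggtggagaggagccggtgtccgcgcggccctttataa
Atp6v0e: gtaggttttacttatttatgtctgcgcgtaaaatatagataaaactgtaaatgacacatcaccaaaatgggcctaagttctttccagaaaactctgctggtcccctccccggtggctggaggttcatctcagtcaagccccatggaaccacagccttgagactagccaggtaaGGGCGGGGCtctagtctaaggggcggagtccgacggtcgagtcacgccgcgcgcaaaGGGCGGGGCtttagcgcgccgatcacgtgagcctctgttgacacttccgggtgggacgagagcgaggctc
The other three are of Ppbp, a platelet chemokine (chr5:90768268-90768567, plus strand), Hoxa11, a homeobox gene of limb patterning (chr6:52245761-52246060, minus strand), and 1700034J05Rik (chr6:146954372-146954671, minus strand).
Ppbp: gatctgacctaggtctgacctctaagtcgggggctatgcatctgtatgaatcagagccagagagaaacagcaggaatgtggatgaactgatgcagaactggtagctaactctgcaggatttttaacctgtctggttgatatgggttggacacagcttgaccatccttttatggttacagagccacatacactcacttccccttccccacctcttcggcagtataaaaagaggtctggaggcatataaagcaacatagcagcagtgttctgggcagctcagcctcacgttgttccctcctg
Hoxa11: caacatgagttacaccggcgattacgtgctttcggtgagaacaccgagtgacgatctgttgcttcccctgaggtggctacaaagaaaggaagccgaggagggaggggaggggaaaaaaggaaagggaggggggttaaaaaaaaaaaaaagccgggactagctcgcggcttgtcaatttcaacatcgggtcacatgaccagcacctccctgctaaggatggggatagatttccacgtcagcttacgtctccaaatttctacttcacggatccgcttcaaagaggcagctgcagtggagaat
1700034J05Rik: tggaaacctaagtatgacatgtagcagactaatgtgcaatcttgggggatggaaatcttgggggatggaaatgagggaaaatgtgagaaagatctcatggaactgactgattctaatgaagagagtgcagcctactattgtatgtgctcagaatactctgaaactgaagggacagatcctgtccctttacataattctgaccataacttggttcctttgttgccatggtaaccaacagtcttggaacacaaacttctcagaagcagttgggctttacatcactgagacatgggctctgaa
Each of the first 3 holds the motif at least once, and the last 3 hold none. Other promoters of the same domains and classes went the other way: Amotl2, kept, holds none, and Cxcl2 and Cxcl3, lost, hold 1 each. Over the classes, 43 of 58 promoters (74.1%) of the first and 5 of 29 (17.2%) of the second held it, beside 32.3% of all 21045 protein-coding promoters. Promoters with H3K27ac in all 12 libraries and KLF4 in none of them held it in 3 of 17 cases (17.6%) in the domains and in 12.4% of 437 outside. The classes also differed in base composition, with a median GC content of 68.7% and 49.7%, and the part of composition in the motif share was not tested. Outside the 500 domains the same classes held the motif in 74.0% of 947 and 17.5% of 308 promoters, so the shares were not particular to the domains. A match is a description of the letters, not a binding site.

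The 500 domains spanned a median of 57.6 kb, from 21.9 to 189 kb, and held a median of 12 kept peaks, from 3 to 47. Their kept base pairs ran from 17572 to 92289 with a median of 24058, against a median of 1869 bp and 2 peaks in the other domains. The limit cut a smooth range: domain 499 summed to 17589 bp and domain 500, at Phc3 and Prkci, to 17572 bp, while domain 501, at Rps27 and 6 further genes, summed to 17544 bp and domain 502, at Rictor, to 17537 bp. A median of 43.3% of a domain's span was kept peak. No domain of the 500 lay on chromosome X, which held 744 of all domains. Either MEF list alone gave a set of 500 that overlapped 451 or 449 of these domains, ranking by span gave 345, and joining under 5 kb gave 315.

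The domains held genes of fibroblasts. Of 21631 protein-coding genes, 824 (3.81%) lay in a domain or within 2.5 kb of one. Of lists drawn up with earlier results of these data known, the domains held 8 of 18 matrix genes, 9 of 22 mesenchymal transcription factors, 8 of 17 matched contractile and YAP or SRF target genes, 6 of 11 AP-1 genes, 6 of 15 TGF-beta pathway genes and 6 of 13 surface and adhesion genes. They held 0 of 18 pluripotency genes, 0 of 9 epithelial, 0 of 8 endothelial, 0 of 8 macrophage and blood, 0 of 7 skeletal muscle and 0 of 8 neural genes. Membership is the MEF acetylation that the rule used, so these counts describe the domains and are no independent check of the cell type. Of the 500, 419 overlapped a protein-coding gene, 81 overlapped none, and 72 (14.4%) overlapped one of the 500 largest ESC domains found by the same rule, while 70 of those ESC domains (14.0%) overlapped a MEF one.

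Among the stages after MEF, peaks covered least of the domains at day 6, and more at day 3, at day 9 and in ESC. The measure is the percentage of kept MEF base pairs that a library's peaks covered. It was 91.6% and 92.0% in the MEF libraries that set the domains. The rule fixed these high values in advance, so the step down from MEF is no finding. All other domains showed that step too, at 89.6% in MEF and 23.6% at day 3. At day 3 the EA-3702 library covered 29.0% and the DG-3458 libraries 25.1% and 21.1%. At day 6 the DG-3458 libraries covered 6.10% and 5.40% and the EA-3702 library 11.1%. Every day 6 library was below every day 3 library, and this held within each batch. Day 9 libraries covered 18.9% and 19.6%, and ESC libraries 18.5% and 17.8%. The lists differ in extent, with 23.8 to 38.4 Mb under peaks at day 3, 9.21 to 19.9 Mb at day 6, 48.9 and 49.5 Mb at day 9 and 66.3 and 62.3 Mb in ESC. As a share of each list's own base pairs, the part inside the 500 domains went down from 11.3% on day 3 to 7.89% on day 6, 5.37% on day 9 and 3.87% in ESC. It was 15.1% in MEF, which chose the domains. The rise after day 6 is thus in base pairs covered and not in the share of the list. With the same number of top-score peaks from each library, the domains were covered to 16.8%, 7.0%, 13.7% and 10.8% from day 3 to ESC. In bulk samples, fewer cells with the mark and less of the mark per cell cannot be told apart, and the sort at day 6 and day 9 changes which cells are measured.

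The order of the 500 and the other domains depended on the measure. By pooled base pairs, all other domains averaged 23.6% ± 4.67 (SD, n = 3) at day 3 beside 25.1% ± 3.98 (n = 3) in the 500. At day 6 they averaged 12.8% ± 4.13 (n = 3) beside 7.55% ± 3.13 (n = 3), at day 9 28.4% ± 0.508 (n = 2) beside 19.3% ± 0.473 (n = 2), and in ESC 24.2% ± 0.665 (n = 2) beside 18.1% ± 0.438 (n = 2). The ratio of the 500 to the others was 1.01 to 1.10 in the day 3 libraries and 0.544 to 0.636 in the day 6 libraries, ranges that do not overlap. It was 0.674 and 0.681 at day 9 and 0.749 and 0.752 in ESC. The next 500 domains by the same sum stood at 22.6%, 8.58%, 20.5% and 19.2% for the 4 stages in order, below both sets at day 3 and between them afterwards. By single domains the order was the reverse, with a median coverage of 4.38% in the 500 and 0% in the others at day 6, 14.2% and 0% at day 9, and 9.95% and 0% in ESC. Domains with no coverage made up 29.5% of the 500 and 67.3% of the others at day 6. The others hold fewer peaks each. No test was made on these values, since the domains were chosen by size in MEF.

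**Figure D1:**
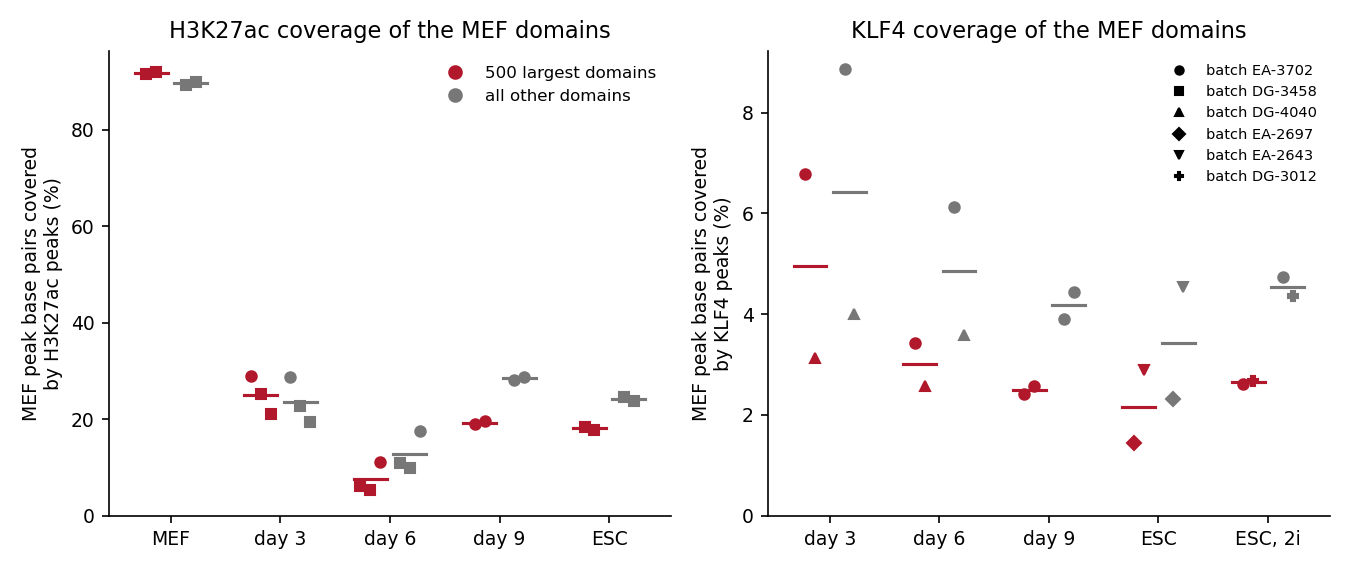
Percentage of kept MEF base pairs covered by H3K27ac peaks (left) and KLF4 peaks (right) in each library, for the 500 largest domains (red) and all other MEF domains (grey). Each point is 1 library, its shape gives the batch, and bars are stage means; in H3K27ac the 500 domains sit at the level of the others at day 3 and below them from day 6 on.

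Start sites kept more acetylation than distal sequence. Of the kept peaks of the 500 domains, 527 (8.0%) lay within 1 kb of a protein-coding start, against 17.6% in the other domains, and they made up 13.3% against 25.2% of base pairs. The start-site peaks of the 500 were covered to 48.8% ± 6.4 (n = 3) at day 3, 25.5% ± 7.23 (n = 3) at day 6, 51.2% ± 1.03 (n = 2) at day 9 and 43.2% ± 0.848 (n = 2) in ESC. Their distal peaks were covered to 21.4% ± 3.64 (n = 3), 4.79% ± 2.5 (n = 3), 14.4% ± 0.387 (n = 2) and 14.3% ± 0.375 (n = 2). Distal peaks of the other domains had 15.1% at day 3, 5.28% at day 6, 15.3% at day 9, with 13.0% in ESC libraries. Start-site peaks of the other domains had 48.7%, 35.0%, 67.5% and 57.3%, above those of the 500 at day 9 and in ESC in every library. Peak width goes with this contrast: start-site peaks had a median of 2568 bp in the 500 and 1675 bp in the others. By count of peaks overlapped rather than base pairs, 66.7% of start-site peaks of the 500 and 68.9% of those of the others carried an H3K27ac peak at day 6, with 80.8% and 86.9% at day 9 and 79.0% and 85.2% in ESC. By that count distal peaks of the 500 stood above those of the others, the reverse of the base-pair values at day 6 and day 9, with 9.83% against 8.11% at day 6, 21.2% against 18.4% at day 9 and 22.0% against 17.7% in ESC.

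**Figure D2:**
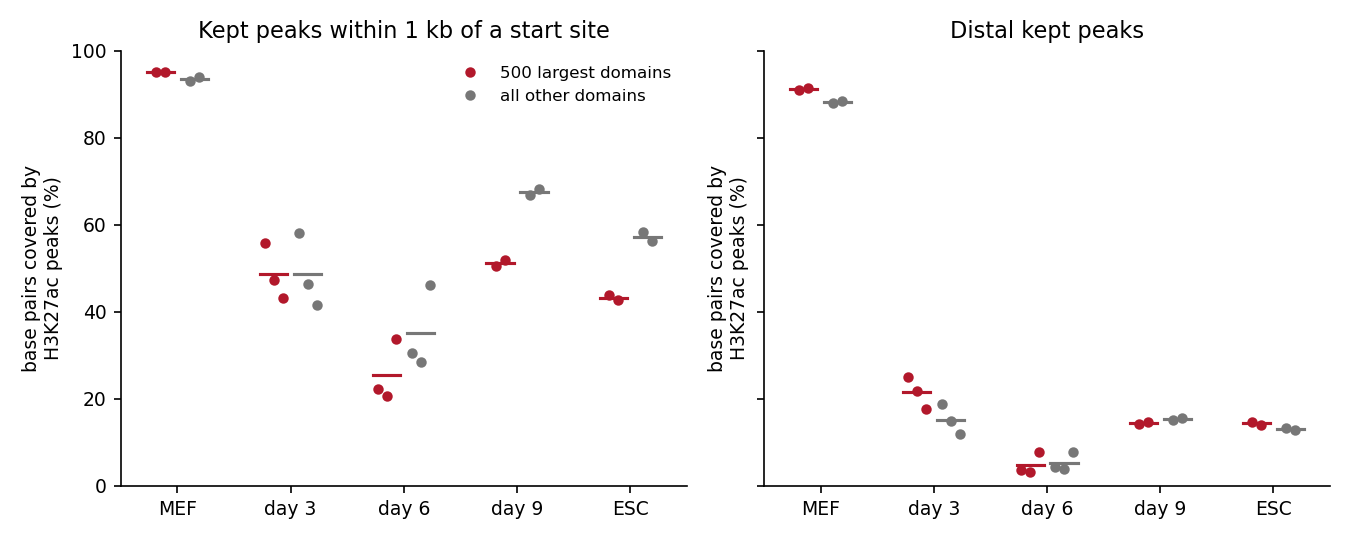
Percentage of base pairs covered by H3K27ac peaks in kept peaks within 1 kb of a protein-coding start (left) and in all other kept peaks (right), by stage. Each point is 1 library and bars are stage means; start-site sequence stays above distal sequence at every later stage, and the 500 domains (red) fall below the others (grey) at start sites from day 6 on.

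Single domains were tested with limma (version 3.58.1) over all domains that had coverage in at least 2 of the 10 later libraries, with Benjamini-Hochberg adjustment over the 15013 domains tested, of which 484 were among the 500. From day 3 to day 6, 335 of the 484 fell and 0 rose at an adjusted p under 0.05, beside 26.8% of all domains tested that fell. Of the next 500 domains by size, 278 of 470 fell. The median difference was -15.2 percentage points in the 500 and -11.8 points over all domains tested. With no filter on coverage, 291 of 500 fell, beside 11.4% of all 26385 domains. The medians were then -14.6 points in the 500 and -1.07 points over all domains. The 500 hold more peaks per domain than the rest, and the part of that in the share called was not tested. Within batch DG-3458 alone 349 of 470 fell, beside 37.6% of all domains. Within EA-3702, where day 3 and day 6 have 1 library each, the difference between these libraries had a median of -17.3 points in the members and -10.9 points over all domains, with no replicate check. With the same number of top-score peaks from each library, 174 of 422 fell, beside 11.9% of all.

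The 5 largest falls were at Rnf216, Lbh, Camk2d, Myh9 and Fmnl2. The domain at Rnf216, a ubiquitin ligase (chr5:143032936-143066644, mm10), was covered to 70.1%, 60.0% and 52.6% at day 3 and to 0%, 1.39% and 2.58% at day 6. It fell by 59.6 ± 4.46 points (SE; limma adjusted p = 9.52e-05) and stood at 2.72% and 5.54% in ESC. The domain next to Lbh, a transcription cofactor of limb and heart (chr17:72954481-72977997), went from 63.4%, 51.5% and 49.2% to 0% in all 3 day 6 libraries, with 0% in both ESC libraries. The Camk2d domain, named for a calcium-dependent kinase, went from 78.5%, 69.5% and 65.9% to 8.75%, 9.22% and 35.8%, the last in EA-3702, and also reached 0% in ESC. Myh9, the heavy chain of non-muscle myosin, and Fmnl2, a formin that builds actin filaments, made up the rest. Both kept a part of their acetylation at day 6, and their domains stood at 57.1% and 57.8% (Myh9) and at 34.3% and 36.2% (Fmnl2) in the ESC libraries.

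From day 6 to day 9, 257 of the 484 rose and 0 fell, beside 56.3% of all domains tested that rose, and 234 of 470 of the next 500. The median difference was 9.24 points in the 500 and 25.2 points over all domains tested. With no filter on coverage it was 8.92 points in the 500 and 0 over all 26385 domains. The count depended on the libraries and the batch. It was 117 and 96 without the first or the second day 9 library (29.0% and 24.4% of all domains), 144 without either DG-3458 library of day 6 (37.1% and 36.6%) and 150 with batch as a term (37.1%). Within EA-3702, with 1 library at day 6, the median difference was 7.54 points in the members and 18.3 points over all domains. By the percentage of kept peaks overlapped the order turned, with 80 members (16.5%) beside 9.92% of all. The order also turned with no filter, where 183 of 500 members rose (36.6%, beside 23.9% of all). On the arcsine scale 305 members rose (63%, beside 58.4%). Without the EA-3702 library of day 3 the count was 317 (66.9%, beside 64.2%). Without the second DG-3458 library of day 3 it was 288 (60.1%, beside 58.2%). The largest rises were at Chd2, Iqgap1, Cd9, Sec14l1 and a domain of Ccdc9, Inafm1 and Bbc3. The Chd2 domain, at a chromatin remodeller (chr7:73516876-73560671), rose from 27.8%, 24.1% and 48.6% to 84.7% and 82.8%, by 50.3 ± 7.63 points (limma adjusted p = 0.00216). The domain of Iqgap1, an actin-binding scaffold, rose from 3.59%, 3.28% and 11.2% to 53.7% and 52.6%. The domain of Cd9, a tetraspanin that is also used as a surface marker of pluripotent cells (chr6:125447030-125513820), rose from 6.53%, 8.67% and 19.2% to 60.1% and 55.8% and stood at 69.9% and 68.4% in ESC. At day 3 it had 34.4%, 36.8% and 27.5%, so it was lowest at day 6. The Sec14l1 domain rose by 44.4 ± 9.21 points (adjusted p = 0.00692, not passed without the second day 9 library, at 41.2 points) and that of Bbc3, the cell death gene PUMA, by 43.8 ± 6.32 points (adjusted p = 0.00175).

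From day 9 to ESC the domains went both ways. Of the 484, 68 rose, beside 8.99% of all domains tested, and 75 fell, beside 17.0%. Among the next 500, 55 of 470 rose and 66 fell. The median difference was -1.45 points. All day 9 libraries are of one batch and all ESC libraries of another, and no batch holds both stages. With batch as a term, which rests on day 3 and day 6, 98 rose and 25 fell (13.2% and 8.0% of all domains), and the median difference turned to 1.35 points. The count of falls was 25 and 27 without one or the other day 9 library, 18 and 16 without one or the other ESC library and 114 without the day 3 EA-3702 library, beside 8.2%, 7.66%, 7.83%, 7.48% and 22.1% of all domains in the same order, and the count of rises was 43 without the first ESC library (3.69% of all). ESC were grown on feeder cells, which are fibroblasts, and the labels do not say that these were removed. In 100 of the 500 domains (20.0%) both ESC libraries were at 0%, beside 25.2% of the next 500 and 54.6% of the other domains. The other domains hold fewer kept peaks each.

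The gains from day 9 to ESC were large in single domains. The domain of Hspb8, a small heat shock protein (chr5:116407363-116461370), rose from 27.3% and 30.5% to 84.5% and 85.7%, by 56.2 ± 5.36 points (limma adjusted p = 0.000201), from a low of 4.13%, 2.33% and 9.23% at day 6. The domain beside Txn2, a mitochondrial thioredoxin (chr15:77876488-77913924), rose from 9.79% and 12.3% to 67.9% and 60.8%, and all 3 day 6 libraries were at 0%. It lies next to the Myh9 domain, just beyond the joining distance. The domain beside Pim1, a kinase gene downstream of LIF and STAT3 signalling, rose from 24.7% and 25.9% to 77.1% and 79.9%, that of Nfkbie, an inhibitor of NF-kappa-B, from 27.6% and 30.7% to 76.0% and 79.7%, and that of Irf2bpl from 47.2% and 47.0% to 90.7% and 90.5%.

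The 5 largest losses from day 9 to ESC were at Capn2, Mbnl1, Nfix, Hmga2 and Septin11. The domain of Capn2, a calcium-activated protease (chr1:182490097-182543395), was covered to 14.1%, 8.99% and 16.9% at day 6, 55.5% and 55.2% at day 9 and 3.81% and 5.60% in ESC. It fell by 50.6 ± 5.99 points (limma adjusted p = 0.000676). The domain of Mbnl1, a splicing regulator, went from 55.4% and 57.2% to 10.6% and 9.37%. That of Nfix, a nuclear factor I gene, with Calr and Farsa (chr8:84709412-84857846) went from 55.6% and 57.1% to 17.1% and 15.1%. The domains of Hmga2, a chromatin protein of embryonic and proliferating cells, and of Septin11, a filament-forming GTPase, changed by -39.6 ± 9.02 (limma adjusted p = 0.0155) and -38.7 ± 6.66 points (adjusted p = 0.00447). The Hmga2 fall had the same sign and did not pass with batch as a term (-24.4 points), nor without either day 9 or either ESC library.

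The domains differed widely from one another. At day 3 the domain means ran from 0% to 75.8% with a median of 21.5% and quartiles of 8.73% and 38.3%, and the Zfhx3 domain was highest. At day 6 the median was 4.46% and the highest was 47.8%, at Kmt2e. In ESC the median was 9.87% and the highest 91.2%, in a histone gene cluster. Coverage of at least 50% in every library of a stage was found in 27 domains on day 3, 0 on day 6, 37 on day 9 and 53 in ESC, or 5.4%, 0%, 7.4% and 10.6% of the 500 beside 10.8%, 3.52%, 26.9% and 21.1% of the other domains. Coverage of at most 10% in every library was found in 110, 294, 189 and 241, or 22.0%, 58.8%, 37.8% and 48.2% beside 47.7%, 65.2%, 54.0% and 57.6% of the others, which are smaller. Over all 10 later libraries 90 domains never passed 10%, 12 of them at 0% throughout, and 81 were never below 10%. These counts over all later libraries were made in the 500 alone, so no share of the other domains stands beside them. By size within the 500, in steps of 100 from the largest, the medians in ESC were 6.22%, 13.4%, 9.92%, 9.29% and 11.7%, with no steady order.

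**Figure D3:**
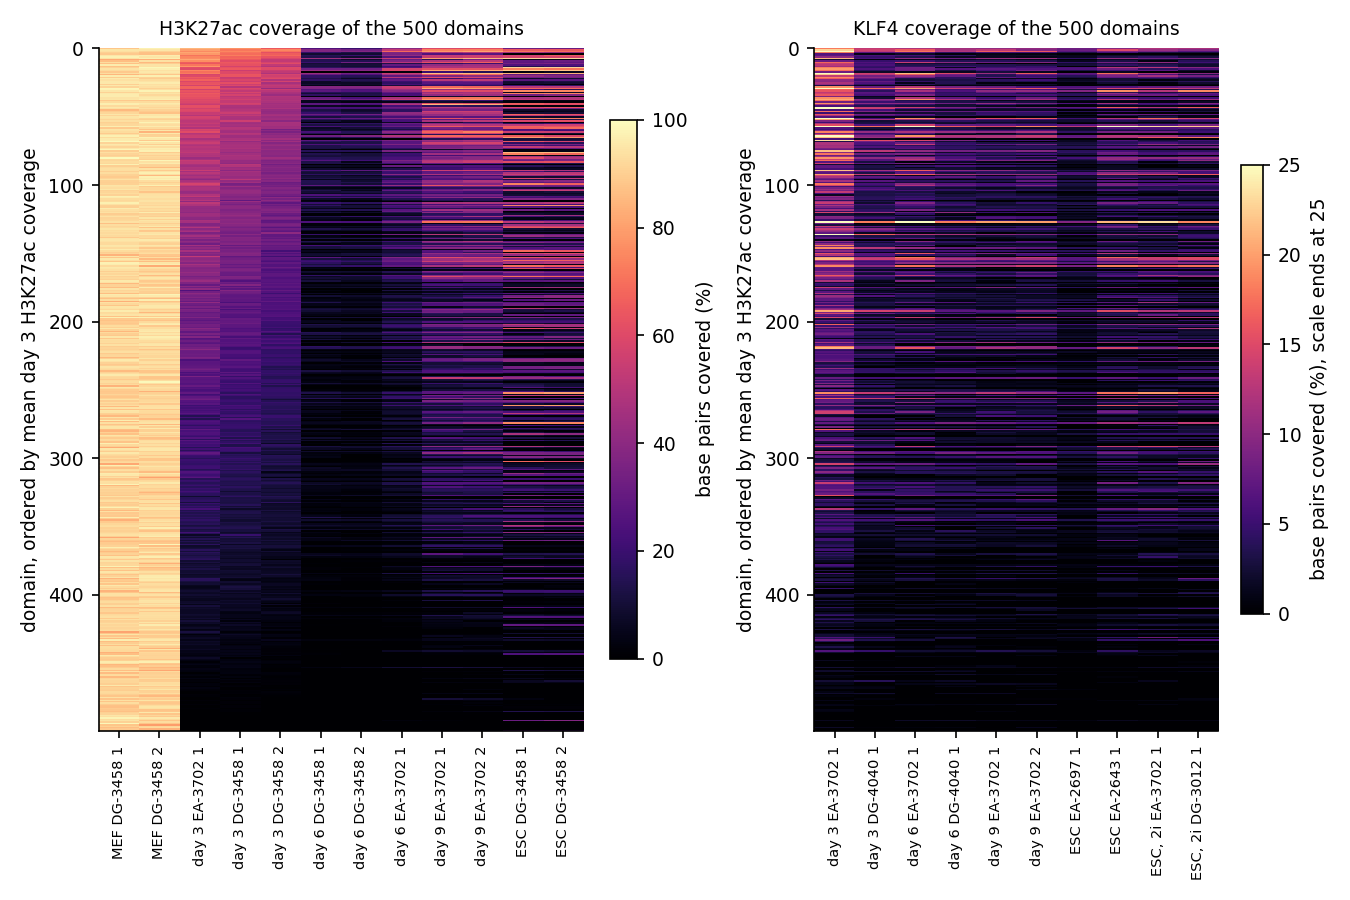
Coverage of each of the 500 domains (rows, ordered by mean day 3 H3K27ac coverage) in each of 12 H3K27ac libraries (left, 0 to 100%) and 10 KLF4 libraries (right, 0 to 25%). Domains with more acetylation at day 3 tend to hold more at day 6 and day 9 and more KLF4, while ESC adds bright rows among domains that were lower at day 3.

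Domains kept their order over the days of reprogramming more than into ESC. Across the 500 domains, Spearman's rho of mean coverage was 0.805 between day 3 and day 6, 0.933 between day 6 and day 9, 0.769 between day 9 and ESC and 0.566 between day 3 and ESC. Domains are not independent replicates, stages share batches and base composition is common to all, so these are descriptions. Coverage of at least 50% in every day 3, day 9 and ESC library was found in 9 domains, among them those of Myh9, Fos, Kmt2e, Spen, Supt5 and Kirrel and 2 histone clusters. The reverse pattern, at most 10% in every day 3 library and at least 30% in both ESC libraries, was found in 1 domain, at Bcar3. Another 35 had at least 30% in every day 3 library and at most 10% in both ESC libraries, among them the domains of the Hoxa cluster, Col4a1 and Col4a2, Acta2, S100a4 and Camk2d. These patterns were counted in the 500 alone. No share of the other domains stands beside them, so they are not read as traits of the 500.

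The 10 largest domains show the range. The largest, 92.3 kb of kept peaks in 47 pieces, covered the CXC chemokine cluster of Cxcl5, Ppbp, Pf4, Cxcl3, Cxcl15, Cxcl1 and Cxcl2 (chr5:90731406-90908915). It had 5.64%, 4.57% and 3.58% at day 3 and 0%, 0% and 1.49% at day 6, and 0.797% and 0.941% in ESC. The second, of 92.0 kb at Amotl2, an angiomotin of the Hippo pathway, with Cep63 and Anapc13 (chr9:102622416-102785492), went from 45.4%, 39.3% and 34.7% to 7.95%, 5.80% and 14.4% at day 6, and was back at 37.2% and 37.3% in ESC. The third was the Hoxa cluster of body patterning genes (chr6:52157311-52266961), at 47.9%, 45.1% and 37.8% on day 3, 9.24%, 7.07% and 13.9% on day 6, 20.2% and 26.6% on day 9 and 6.95% and 6.80% in ESC. On day 3 the chemokine domain was covered less than the Hoxa domain in each library, a difference that was not tested. The Hoxa domain had 93.6% and 93.8% in MEF, values that the rule used, so no loss from MEF is read here.

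The fourth, at Vmp1, which encodes an autophagy membrane protein, and Tubd1, stood at 57.5%, 59.5% and 52.8% on day 3 and at 4.45%, 4.43% and 10.8% on day 6, a change of -50.1 ± 3.26 points (limma adjusted p = 5.09e-05). The fifth, at F3, averaged 19.3% at day 3, 3.85% at day 6 and 24.3% in ESC. The sixth, at the collagen gene Col5a1 and Rxra, and the seventh, at Dhrs3 and Vps13d, averaged 11.3% and 11.9% at day 3 and 4.64% and 4.90% in ESC. The eighth overlapped no protein-coding gene and lay nearest to Haao, the ninth held Arf6 and Nemf, and the tenth Aopep. These averaged 36.3%, 14.4% and 25.2% at day 3 and 5.15%, 4.81% and 1.49% at day 6. All 10 fell from day 3 to day 6 at an adjusted p under 0.05, as did 69.2% of the members tested and 26.8% of all domains.

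The 8 matrix domains mostly fell from day 3 to day 6, as most members tested did, and then ranged widely. Their ESC means ran from 0% to 75.4% with a median of 3.51%, beside a median of 9.87% in all 500. The list was not tested against the other members. Of the 8 domains, 7 fell from day 3 to day 6 (26.8% of all domains tested, 69.2% of the members tested), 2 rose from day 6 to day 9 (56.3% and 53.1%), and 2 rose (8.99% of all) and 1 fell (17.0%) from day 9 to ESC. The Col1a1 domain, at a collagen gene that in these cells also carries the OKSM cassette, had 3.76%, 5.49% and 4.27% at day 3, 0% in all 5 libraries of day 6 and day 9 and 3.38% and 4.40% in ESC, which lack the cassette. The Lox domain, at the enzyme that crosslinks collagen, had 9.08%, 8.96% and 7.02% at day 3, 0% at day 6 and 0% in ESC, and no KLF4 in any of 10 libraries. The Sparc domain, with the matricellular gene Sparc and with G3bp1 and Atox1, stood apart: it was at 47.7%, 39.0% and 31.3%, fell to 17.4%, 10.8% and 24.8%, and reached 73.9% and 77.0% in ESC, above its day 3 libraries. Thbs2, a thrombospondin, was the member that did not pass from day 3 to day 6, at 8.72%, 8.92% and 1.29% against 1.29%, 0% and 0%.

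Mesenchymal transcription factors ranged widely at day 3. Of 9 domains, 7 fell from day 3 to day 6, 3 rose from day 6 to day 9 and 2 fell from day 9 to ESC, beside 26.8%, 56.3% and 17.0% of all domains tested and 69.2%, 53.1% and 15.5% of the members tested. The Prrx1 domain, at a homeobox gene of limb mesenchyme, had 35.7%, 26.3% and 24.9% at day 3, 1.69%, 1.26% and 10.9% at day 6 and 0.843% and 0% in ESC. The Osr1 domain had 2.21%, 0% and 1.54% at day 3 and 0% in all 7 later libraries. The Id3 domain, at an inhibitor of bHLH factors, kept 26.1%, 23.4% and 44.1% at day 6 after 56.9%, 56.4% and 54.4% at day 3. The Tead1 domain, at the DNA-binding partner of YAP, averaged 42.6%, 16.3%, 44.6% and 38% over the 4 stages. In ESC, Prrx1 and Osr1 were thus at most at 0.843% while Tead1 averaged 38%, and the difference between these domains was not tested.

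All 8 domains of contractile and YAP or SRF target genes fell from day 3 to day 6, beside 26.8% of all domains and 69.2% of the members tested, and 5 rose again by day 9, beside 56.3% of all and 53.1% of the members tested. The Acta2 domain, at smooth muscle actin, had 41.6%, 39.7% and 36.2% at day 3, 5.18%, 1.18% and 11.2% at day 6 and 0% in both ESC libraries. The Actn1 domain, at an actin crosslinker, had 46.8%, 35.0% and 22.2%, then 5.49%, 5.04% and 10.3%, then 26.9% and 32.6%, and ended at 68.5% and 63.7% in ESC, a rise of 36.4 ± 7.49 points from day 9 (limma adjusted p = 0.00994). Genes of the same contractile apparatus thus ended at both ends of the range.

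AP-1 genes encode the Fos, Jun and Maf proteins, which pair to bind enhancers of fibroblasts and of many stimulated cells. Their 6 domains kept the most acetylation at day 6 of the 6 lists, with a median of 30.8% beside 4.46% in all 500. From day 3 to day 6, 1 of 6 fell, at Junb, beside 26.8% of all domains tested and 69.2% of the members tested. From day 6 to day 9, 6 of 6 rose, beside 56.3% of all domains tested. The Fos domain had 67.1%, 50.3% and 51.5% at day 3, 38.4%, 37.9% and 54.7% at day 6, 68.1% and 66.5% at day 9 and 50.5% and 50.6% in ESC. The Jund domain had 42.0%, 32.1% and 29.1%, then 27.3%, 22.1% and 37.8%, then 61.3% and 59.2%, with 62.3% and 60.8% in ESC. The Fosb domain fell from 63.1% and 57.7% at day 9 to 33.3% and 34.5% in ESC (adjusted p = 0.0381), the 1 AP-1 domain that did. These domains also had the highest KLF4 of the lists, with a median coverage of 12.9% at day 3 beside 4.11% in all 500, and 5 of the 6 overlap more than 1 gene. The part of gene number in this was not tested.

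All 6 TGF-beta pathway domains fell from day 3 to day 6 and 3 of 6 rose by day 9, beside 26.8% and 56.3% of all domains tested and 69.2% and 53.1% of the members tested. The domain of Tgfb3, a TGF-beta ligand, had 36.1%, 33.8% and 40.3% at day 3 and 1.34%, 0% and 3.49% at day 6. Of 6 surface and adhesion domains, 3 fell from day 3 to day 6 and 2 rose by day 9, beside the same shares. The Cd44 domain, at the hyaluronan receptor, had 31.9%, 23.0% and 20.0% at day 3 and 0% in both ESC libraries. The S100a4 domain, at a calcium-binding protein used as a fibroblast marker, had 40.6%, 38.6% and 37.2%, then 11.7%, 8.06% and 13.5%, then 39.7% and 38.2% at day 9, and 5.59% and 6.04% in ESC, a change of -33.1 ± 3.27 points (limma adjusted p = 0.000247). The Cdh2 domain, at N-cadherin, averaged 0.401% at day 3.

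Domains with high ESC coverage included genes of all cells. The 8 highest had means from 77.9% to 91.2%: 3 histone clusters (chr13:23729407-23764226, chr13:23505036-23587408 and chr3:96218836-96278963), Irf2bpl, Hspb8, Pim1, Lmnb2 with Gadd45b, and Nfkbie. The histone clusters were also among the highest at day 6, with 44.2%, 40.9% and 54.3% in the first. Histone genes are near-identical copies, so reads there can be shared between members of a cluster. The 72 domains that overlapped a large ESC domain were covered to 38% at day 3, 15.0% at day 6 and 37.7% at day 9, against 22.8%, 6.23% and 16.0% in the other 428. The order held in each library of those days. ESC values chose these 72 and are not compared.

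Fewer base pairs of the domains were covered by KLF4 than by H3K27ac, and the EA-3702 library of day 3 had the most. The day 3 libraries covered 6.78% (EA-3702) and 3.14% (DG-4040) of kept base pairs, and the day 6 libraries 3.43% and 2.58% in the same order. Day 9 had 2.41% and 2.58%, serum ESC 1.45% and 2.88%, and ESC in 2i 2.62% and 2.67%. By pooled base pairs, all other domains were covered more in each library, at 8.86% and 4.00% at day 3 and 4.74% and 4.35% in 2i. The ratio of the 500 to the others by that measure ran from 0.552 to 0.785. By single domains the order was the reverse at day 3, with a median of 4.03% in the 500 and 0% in the others. By kept peaks overlapped, the day 3 libraries gave 22.6% and 15.9% in the 500, beside 23.1% and 15.1% in the others. KLF4 peaks are narrow, with list medians of 178 to 375 bp, so base pairs understate how many domains are touched: 394 domains had a KLF4 peak in both day 3 libraries, 241 in all 10 libraries and 37 in none. The counts for all 10 libraries and for none were made in the 500 alone. A KLF4 peak in both day 3 libraries was found in 78.8% of the 500, 68.8% of the next 500 and 24.6% of the others. The others hold fewer kept peaks each.

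Tests on single domains found no member called. With limma over 10724 domains with coverage in at least 2 of 10 KLF4 libraries, 0 of 439 members passed an adjusted p of 0.05 from day 3 to day 6 (1.86% of all domains tested), from day 6 to day 9 (0.261%), from day 9 to ESC (0.653%) or from ESC to ESC in 2i (0.569%). At an unadjusted p under 0.05, 41 members (9.34%) fell from day 3 to day 6, beside 9.6% of all domains, and 0 rose, beside 1.25%. To day 9, 1 rose and 3 fell (0.228% and 0.683%, beside 1.71% and 2.5% of all), to ESC 1 rose and 2 fell (0.228% and 0.456%, beside 2.62% and 5.31%), and in 2i 2 rose (0.456%, beside 3.6%). These shares are at or below those over all domains. The adjusted calls from day 3 to day 6 turned on the day 3 libraries, where a stage left with 1 library is assumed to vary like the others. Without the DG-4040 library of day 3, 86 of 428 fell (10.5% of all domains), with a median difference of -3.84 points. Without the EA-3702 library of day 3, 0 of 422 were called, with a median of -0.0963 points. Within EA-3702, 1 library at day 3 and 1 at day 6 differed by a median of -3.36 points in the members and -3.58 points over all domains, a comparison of libraries with no replicate check. By the percentage of kept peaks overlapped, 22 members fell from day 3 to day 6 (5.01%, beside 4.11% of all domains), 7 to day 9 (1.59%, beside 1.6%), 8 to ESC (1.82%, beside 2.36%) and 7 in 2i (1.59%, beside 1.22%), shares near those over all domains. Rises by that measure numbered 1, 1, 5 and 0, beside 0.41%, 0.634%, 1.86% and 1.08% of all. The 2 libraries of day 3, of day 6 and of both kinds of ESC came from different batches.

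The 8 domains with the most KLF4 at day 3 averaged 20.5% to 25.3%. The highest held Cirbp, a cold-inducible RNA-binding protein, Midn, Atp5d, Cbarp and Efna2 (chr10:80137851-80180231), with 33.3% and 17.4% at day 3, 24.9% and 16.4% at day 6, 14.8% and 18.7% at day 9, 13.0% and 25% in serum ESC and 23.4% and 22.3% in 2i. A histone cluster, Ahnak with Mta2 and Eml3, Bbc3, Ccn1, S100a11, Kmt2e and Fscn1 with Actb followed. Ccn1, a matricellular YAP target (chr3:145601820-145657011), was among these 8. Its domain had 28.8% and 14.1% at day 3, 6.35% and 6.19% at day 6, 2.59% and 3.05% at day 9 and 4.92% and 5.68% in serum ESC. Both domains were lower at day 9 than at day 3 in batch EA-3702. Day 3 was not tested against day 9, nor were these domains tested against each other. Neither domain was called in the KLF4 contrasts that were run.

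Distal kept peaks with KLF4 at day 3 carried H3K27ac far more often than those without. Among distal kept peaks of the 500 domains, 684 had a KLF4 peak in both day 3 libraries, 4851 in neither and 524 in 1. An H3K27ac peak overlapped 90.4%, 87.7% and 84.8% of the first kind in the day 3 libraries, 47.5%, 44.6% and 60.1% at day 6, 80.0% and 80.3% at day 9 and 59.2% and 59.9% in ESC. For distal peaks with no KLF4 the values were 24.3%, 24.7% and 18.2%, then 2.87%, 1.59% and 4.10%, then 10.2% and 10.6%, and 15.1% and 15.0%. Peaks with KLF4 were wider in MEF, with a median of 3023 bp against 1067 bp, and wide peaks are met by any list more often. Within peaks of 2 to 4 kb (237 with and 922 without KLF4) the shares were 91.0% ± 2.54 and 37.2% ± 6.61 at day 3 (n = 3), 51.3% ± 8.78 and 3.94% ± 2.19 at day 6 (n = 3), 83.8% ± 0.895 and 15.6% ± 0.153 at day 9 (n = 2) and 60.3% in both ESC libraries against 19.6% ± 0.0767 (n = 2). The gap was present in each of the 4 width classes. Within each class the peaks with KLF4 were still wider, with medians of 6119 bp and 5019 bp at 4 kb or more. The cause of the gap was not tested. Among start-site peaks of the 500, 93.8% with KLF4 in both libraries and 58.0% with it in neither carried H3K27ac at day 3. These shares were 81.8% and 34.4% at day 6, 94.4% and 52.3% at day 9 and 91.6% and 50.7% in ESC.

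**Figure D4:**
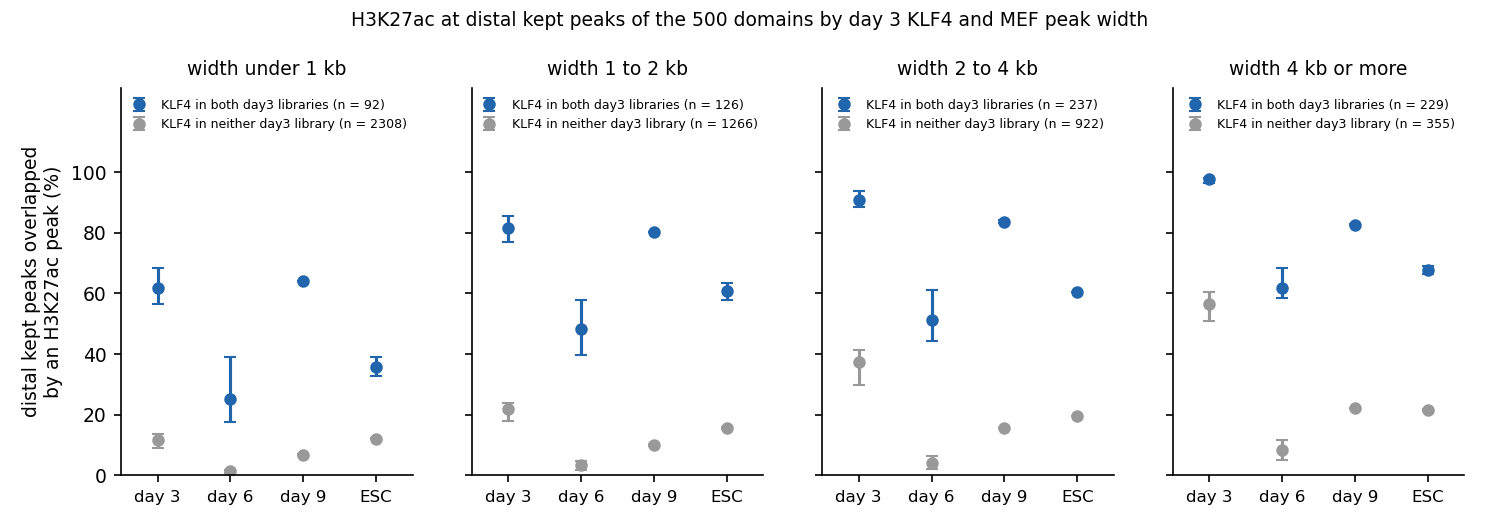
Percentage of distal kept peaks of the 500 domains overlapped by an H3K27ac peak at each later stage, for peaks with KLF4 in both day 3 libraries (blue) and in neither (grey), in 4 classes of MEF peak width. Points are means over libraries, bars run from the lowest to the highest library; blue lies above grey in every class and stage.

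The same split was made outside the 500 domains. Distal peaks of the other domains with KLF4 in both day 3 libraries carried H3K27ac in 80.2% ± 4.89 (n = 3) of cases at day 3, 50.5% ± 7.82 (n = 3) at day 6, 78.5% ± 1.16 (n = 2) at day 9 and 60.9% ± 0.0980 (n = 2) in ESC. Those with KLF4 in neither day 3 library carried it in 13.2%, 2.61%, 9.79% and 11.5% of cases over the same stages, beside 22.4%, 2.85%, 10.4% and 15.0% in the 500, and these differences were not tested. The share of kept peaks of both classes together with KLF4 in both day 3 libraries was 14.5% in the 500 and 13.5% in the others, and with KLF4 in both libraries at all 4 stages from day 3 to serum ESC 5.34% and 5.91%. Of the 952 kept peaks of the 500 with KLF4 in both day 3 libraries, 310 had it in neither serum ESC library. In the other domains this was so for 1772 of 7558, and the difference was not tested. Across the 500, KLF4 coverage at day 3 and H3K27ac coverage went together, with a Spearman's rho of 0.767 for day 3, 0.824 for day 6, 0.836 for day 9 and 0.651 for ESC, as descriptions over domains that share libraries and sequence.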

How the data were processed

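H3K27ac was profiled in 12 libraries and KLF4 in 10, and the authors deposited 1 peak list per library. Per the submitters' processing notes, cutadapt 1.8.1, Bowtie2 2.2.5, deepTools 2.3.6 and MACS2 2.1.1 were used with build mm10. The deposited lists give a score, a fold enrichment, a −log10 p-value and a −log10 q-value for each peak, as the authors' peak caller wrote them. Positions were used for coverage, and score and q-value served only to rank or filter peaks in the alternatives. Depth is unknown, so no counting interval can be given.

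The measure was the percentage of a domain's kept MEF base pairs under a library's peaks. Differences between stages were tested with limma 3.58.1 (R 4.3.3, trend in the variance) over domains with coverage above 0 in at least 2 of 10 libraries, separately for H3K27ac and KLF4, with MEF left out and Benjamini-Hochberg adjustment over all domains tested. The tests are two-sided with a threshold of 0.05. The procedure was run on simulated data with large known shifts in steady domains, independent noise and no batch effect. That run does not bear on small changes, such as those in KLF4 coverage, or on batch. A gene belongs to a domain that lies within 2.5 kb of it in the lists and that overlaps it elsewhere; gene positions and promoters are from RefSeq (GRCm38.p6).

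Named domains are the 10 largest, those at the limit, the 5 largest called changes per H3K27ac contrast and direction, up to 3 per KLF4 contrast and direction (none was called), the 8 highest in ESC H3K27ac and in day 3 KLF4, and those with a listed gene. Domains named by a coverage pattern were chosen after their values were seen. The members and the gene lists were chosen with earlier results of these data known. Alternatives were an arcsine scale, no filter, batch as a term or 1 batch alone, the replicate number as a block, equal numbers of peaks, a q-value limit of 0.01, the percentage of kept peaks overlapped, joining under 5 kb and leaving out each library. The 1-batch fits were added after seeing the data. Input libraries were not analysed here, and some items that meet the naming rule are not reported here.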

Additional observations from a re-analysis of the deposited data

How the results depend on the processing

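Of 335 refits of 20 named changes, 320 kept direction and side of the threshold, 15 did not pass and 0 reversed. The 20 were picked as the largest called changes in these same libraries, so passing again is no independent check. The arcsine scale and joining under 5 kb were not part of these refits. Of the 15, 5 were by peaks overlapped, 4 within EA-3702 alone, 5 without 1 library and 1 with a batch term. The losses by peaks overlapped and within EA-3702 are not named by domain here. Of falls from day 3 to day 6, 58 were called within EA-3702 alone (13.5% of members, 8.54% of all domains) and 174 with equal numbers of peaks (17493 for H3K27ac, 21129 for KLF4; 41.2% and 11.9%). Rises from day 6 to day 9 numbered 150 with a batch term (31.0% and 37.1%), 40 within EA-3702 alone (9.32% and 24.2%), 136 with equal numbers (32.2% and 44.4%) and 80 by peaks overlapped (16.5% and 9.92%). Falls from day 9 to ESC numbered 39 with no filter (7.8% and 6.5%), 25 with a batch term (5.17% and 8.0%) and 36 by peaks overlapped (7.44% and 5.12%). Against 0 KLF4 calls in the members, day 3 to day 6 gave 6 on the arcsine scale (1.37% of members, 3.69% of all), 3 with no filter (0.6% and 0.292%), 123 within EA-3702 alone (30.0% and 22.0%), 1 with equal numbers (0.236% and 1.57%) and 23 by peaks overlapped (5.24% and 4.52%). Day 6 to day 9 gave 1 with no filter (0.2% and 0.0265%), 40 within EA-3702 alone (9.76% and 16.5%), 1 under the q-value limit (0.247% and 0.449%) and 8 by peaks overlapped (1.82% and 2.24%). Day 9 to ESC gave 1 with equal numbers (0.236% and 0.736%), 1 under the q-value limit (0.247% and 0.645%) and 13 by peaks overlapped (2.96% and 4.22%), and 2i gave 7 by peaks overlapped (1.59% and 2.3%). The EA-3702 fits set 1 library of day 6 against 1 of day 3 or 2 of day 9, take their spread from the day 9 pair and do not test the stages. Leaving out 1 library gave 245 to 386 falls to day 6 (17.2% to 37.7% of all), 96 to 317 rises to day 9 (24.4% to 65.8%), 43 to 80 rises and 16 to 114 falls to ESC (3.69% to 11.0% and 7.48% to 22.1%), and for KLF4 0 to 86 to day 6 (up to 10.5% of all fell) and 0 in the other contrasts. A stage left with 1 library is assumed to vary like the others.

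H3K27ac coverage of the 500 was 16.8% (day 3), 13.7% (day 9) and 10.8% (ESC) with equal numbers, 18.2% (day 9) and 16.3% (ESC) under the q-value limit, and 37.7%, 14.4%, 26% and 26.5% over the 4 stages by peaks overlapped. KLF4 coverage was 2.29% (day 9) and 2.21% (2i) with equal numbers, 2.02% and 1.75% under the q-value limit, 2.35% and 2.45% when joining under 5 kb, and 19.2%, 13.9%, 11.9%, 12.7% and 13.4% over the 5 stages by peaks overlapped. Without 1 library, H3K27ac ran from 23.1% to 27.1%, 5.75% to 8.62%, 18.9% to 19.6% and 17.8% to 18.5%, and KLF4 from 3.14% to 6.78%, 2.58% to 3.43%, 2.41% to 2.58%, 1.45% to 2.88% and 2.62% to 2.67%. The cause of these shifts was not tested.

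The replicate numbers share only a number. Differences between replicate 1 and 2 correlated across 15013 domains at -0.00745 (day 3 and day 6), -0.0131 (day 3 and ESC) and 0.00991 (day 6 and ESC). With the replicate block 329 fell, 262 rose, 67 rose and 70 fell in the H3K27ac contrasts in order (25.9%, 57.9%, 8.77% and 16.3% of all), and 0 members were called for KLF4 (0% to 0.867% of all). Peak names inside both DG-3458 lists of day 6 carry each other's replicate number, and those of the EA-3702 list of day 3 carry number 2. The sample labels were used, the signs of the correlations with day 6 and the block counts depend on that choice, and the block was not run with the other numbers. Batch and stage cannot be told apart between day 9 and ESC. The lists have no depth, so absence of a peak is not absence of signal.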
